A study of Mus musculus with 8 samples.

Results

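The nuclear genes of respiratory complex I were followed in ribosome-bound RNA from interneuron synaptosomes. Members were all rows of the expression table whose gene symbol begins with Nduf, 51 of 56576 rows. By symbol, 43 of them were structural rows (Ndufa, Ndufb, Ndufc, Ndufs and Ndufv) and 8 were assembly factors (Ndufaf1 to Ndufaf8). The structural rows held 37 genes of complex I subunits, of which 7 encode core subunits, Ndufa4 and Ndufa4l2, which are no longer counted as complex I subunits, and 4 rows of pseudogenes or gene copies (Ndufs5-ps, Ndufb4c, Ndufa11b and Ndufb11b).

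Synaptosomes, a preparation of pinched-off nerve terminals and their attached postsynaptic parts, came from mouse cerebral cortex at P15, that is postnatal day 15. Controls were Lhx6-Cre;ErbB4+/+;Rpl22HA/HA mice (4 libraries, replicates 1, 3, 4 and 5) and Erbb4 conditional mutants were Lhx6-Cre;ErbB4F/F;Rpl22HA/HA mice (4 libraries, replicates 2, 3, 4 and 5). All animals of both groups thus carried the Lhx6-Cre driver and the HA-tagged ribosomal protein Rpl22, and the groups differed in the floxed allele of Erbb4, a receptor tyrosine kinase. Lhx6-Cre is active in interneurons of the medial ganglionic eminence (MGE) and preoptic area, mostly those that later express parvalbumin or somatostatin, so tag and deletion were in the same cells, and RNA was collected on anti-HA beads before sequencing.

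Complex I is the largest enzyme of the mitochondrial respiratory chain. It takes electrons from NADH in its matrix arm (the N module), passes them to ubiquinone (the Q module), and pumps protons through its membrane arm. Its catalytic core is made of nuclear and mitochondrially encoded subunits, the supernumerary subunits surround and stabilize this core, and assembly factors help to build the enzyme without staying in it. Fast-spiking interneurons are known for their high demand for mitochondrial energy. Subunits encoded by mitochondrial DNA were not analysed here.

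Promoters of the nuclear complex I genes are known for binding sites of NRF-1, ETS factors such as GABPA, and YY1. The search covered 3 sequences on both strands of the RefSeq promoter windows of mouse build GRCm38.p6 (250 bases before to 50 after each start), namely GCGCANGCG for NRF-1, CCGGAAG for ETS factors and AAGATGGCG for YY1. A GCGCATGCG site reads on the opposite strand as another match shifted by a base, and such pairs were counted as 1 promoter. Of the 51 members, 41 matched a promoter by symbol, with 43 windows. The NRF-1 sequence was in 25.6% of the members' windows against 6.25% of all 32851 windows, the ETS sequence in 14% against 8.86%, and the YY1 sequence in 14% against 1.4%. At least 1 of the 3 was found in 48.8% of the members' windows and 14.8% of all windows. The 34 structural genes and the 7 assembly factors with a window had a match in 47.2% and 57.1% of their windows. A match describes letters and no site of binding. Members without an entry included Ndufa2, Ndufa4l2, Ndufa11b, Ndufb4c, Ndufb9, Ndufb11b, Ndufs1, Ndufs5-ps and Ndufaf6.

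Of the 8 structural genes called lower in mutants below, 3 held a match, and their windows are shown with that of Ndufaf8, an assembly factor with matches for ETS factors and YY1. Each runs from 60 bases before to 30 bases into the transcript, 5′ to 3′ on the gene's strand, with the matches in capitals. Ndufa8 lies at chr2:36049309-36049398 (minus strand), Ndufs3 at chr2:90904692-90904781 (minus strand), Ndufs8 at chr19:3912745-3912834 (minus strand) and Ndufaf8 at chr11:120098874-120098963 (plus strand).
Ndufa8: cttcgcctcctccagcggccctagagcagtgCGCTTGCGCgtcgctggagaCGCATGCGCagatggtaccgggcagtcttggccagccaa
Ndufs3: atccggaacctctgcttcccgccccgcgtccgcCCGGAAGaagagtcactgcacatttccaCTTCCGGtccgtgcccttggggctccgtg
Ndufs8: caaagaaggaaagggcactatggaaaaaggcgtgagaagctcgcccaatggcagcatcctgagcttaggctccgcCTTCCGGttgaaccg
Ndufaf8: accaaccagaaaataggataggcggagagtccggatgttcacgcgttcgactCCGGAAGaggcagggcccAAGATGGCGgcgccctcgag
Ndufa8 carried NRF-1 matches at -29 to -21 and at -9 to -1, counted from a start at 1 with no position 0. In Ndufs3 the ETS sequence stood on both sides of the start, at -27 to -21 and at 2 to 8. Ndufs8 had its only match inside the transcript, at 16 to 22.

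Values are the deposited normalized counts, and table totals ran from 58513564 to 82350254 normalized counts per library. Erbb4 had 1640, 5377, 4306 and 3034 normalized counts in controls 1, 3, 4 and 5 and 1711, 1648, 1233 and 1048 in mutants 2, 3, 4 and 5. The library labelled control replicate 1 thus lay below mutants 2 and 3, and libraries are named here by their labels. The Erbb4 row is not limited to the floxed part of the gene. Its log2 fold change was -1.25 (standard error 0.34; limma, unadjusted p = 0.0041, adjusted p = 0.58).

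All 12 markers of MGE-derived interneurons on the list used (Lhx6, Sox6, Gad1, Pvalb, Sst and others) were above 0 in all 8 libraries, and the labelled cell type was in this sense present. Their summed level was 278944, 531079, 176522 and 77635 normalized counts in controls 1, 3, 4 and 5 and 210548, 209067, 58294 and 30149 in mutants 2, 3, 4 and 5. Of the 12, 4 were called lower in mutants (3.17% of all genes were) and 0 higher. All 12 had log2 fold changes below 0, with a median of -0.97, against 0.06 for all genes. Without controls 1 and 3, 0 were called, but all 12 were still below 0, with a median of -0.40. After the correction for transcript length described below, the median was -0.96 and 6 were called lower (3.51% of all genes were). Markers of other cells were present too, and only Sncg of the 8 CGE-derived interneuron markers was at 0 in any library. The 8 oligodendrocyte markers summed to 225751 to 662317 in controls and 196453 to 282086 in mutants, the 8 astrocyte markers to 130690 to 235313 and 136078 to 153724, and the 8 microglial markers to 21820 to 42883 and 24028 to 27560. CGE-derived interneuron markers summed to 12058 to 31507 and 12016 to 12276, the 8 excitatory neuron markers to 114546 to 151316 and 109434 to 136060, and the 4 markers of oligodendrocyte precursors to 14129 to 19816 and 14316 to 16554. For the 8 endothelial and mural markers the sums were 145902 to 248034 in controls and 242571 to 261966 in mutants. Of the 8 oligodendrocyte markers 3 were called lower, of the 8 endothelial and mural markers 4 were called higher (3.98% of all genes were), of the 8 excitatory neuron markers 1 was called lower and 1 higher, and the other lists had 0 calls. The part of these differences in the results on complex I was not tested. In bulk RNA, fewer cells of a type and less RNA per cell cannot be told apart.

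Structural subunit RNAs were lower in Erbb4 conditional mutants on average, by a margin that rested on the controls labelled 1 and 3. Of the 51 members, 49 averaged 10 or more normalized counts in a genotype and were tested, and Ndufa11b and Ndufb11b, both copies, were not. The log2 fold change (mutant minus control, on log2(normalized count + 1)) was below 0 for 40 of the 41 structural rows tested and for 7 of the 8 assembly factors, against 46.6% of all 31171 genes tested. Its median was -0.77 for structural rows, -0.61 for assembly factors and 0.06 for all genes.

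A gene was called here at an unadjusted p no larger than 0.05 and a change of 1.5-fold or more, after the cutoffs in the study's methods, which do not say whether p was adjusted. At these thresholds 8 of the 41 structural rows were called lower, where the share among all genes was 3.17%. None was called higher, where the share among all genes was 3.98%. At an unadjusted p no larger than 0.05 without the fold threshold, 8 structural rows were lower and 0 higher in the limma fit. Of all 31171 genes tested, 2596 had such a p, lower or higher. No assembly factor was called by limma in either direction, also without the fold threshold. With count models on the 6 libraries whose reads could be recovered, edgeR and DESeq2 each called 1 assembly factor, Ndufaf3, as lower, and 21 and 30 structural rows as lower and 0 as higher, where 2.93% and 3.98% of all genes were called lower. These 6 libraries lack control 4 and mutant 5. After Benjamini-Hochberg adjustment over all genes, 0 members passed an adjusted p of 0.05 in limma, edgeR or DESeq2, where 0.0449% of all genes did in limma, and the lowest adjusted p among members was 0.58 in limma. P-values measure the spread between these libraries, which the study describes as biological replicates.

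**Figure D1:**
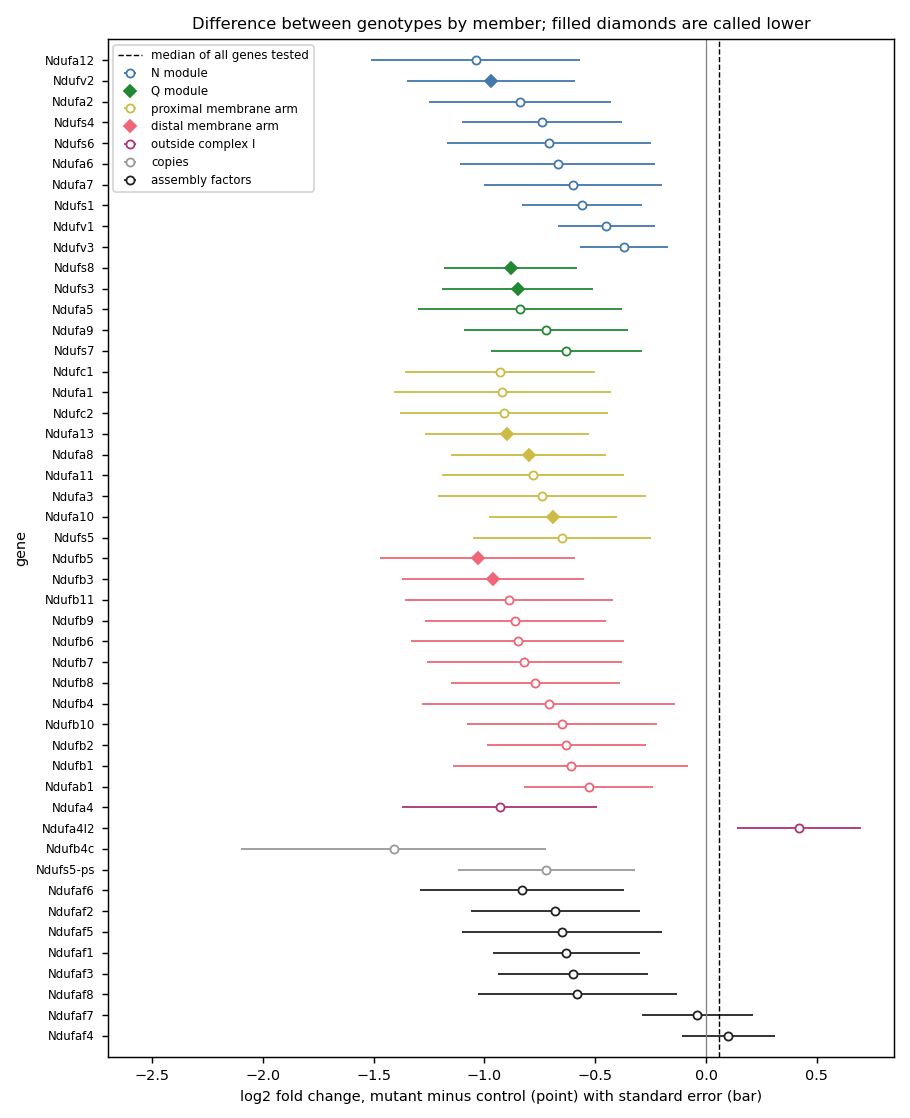
Each point is the log2 fold change (horizontal axis, mutant minus control) of 1 of 48 members tested, with its standard error as a bar, grouped by place in the enzyme, and filled diamonds mark the 8 called lower. All complex I subunit genes drawn lie left of 0, from -1.04 to -0.37, and the dashed line marks the median of all genes tested, 0.06.

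No member had its 4 mutant values all below or all above its 4 control values, where 2.17% of all genes had them all below and 2.76% all above. For 40 of the 41 structural rows (all but Ndufa4l2), controls 1 and 3 were the highest 2 of the 8 libraries, against 14% of all genes tested. In 28 of them controls 4 and 5 both lay under mutants 2 and 3 (19.8% of all genes), and in 29 mutants 4 and 5 were the lowest 2 libraries (9.38% of all genes). Control 4 or control 5 lay under a mutant in 41 of 41, close to the 91.8% of all genes. The libraries were sequenced in more than 1 batch, the labels do not say which library was in which, and the part of batch in this order was not tested. The mean log2 value of the structural rows was 12.07, 12.09, 10.67 and 10.60 in controls 1, 3, 4 and 5 and 10.93, 10.88, 10.36 and 10.28 in mutants 2, 3, 4 and 5. The SD of these means was 0.83 among controls and 0.34 among mutants, beside a difference between genotypes of -0.75.

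**Figure D2:**
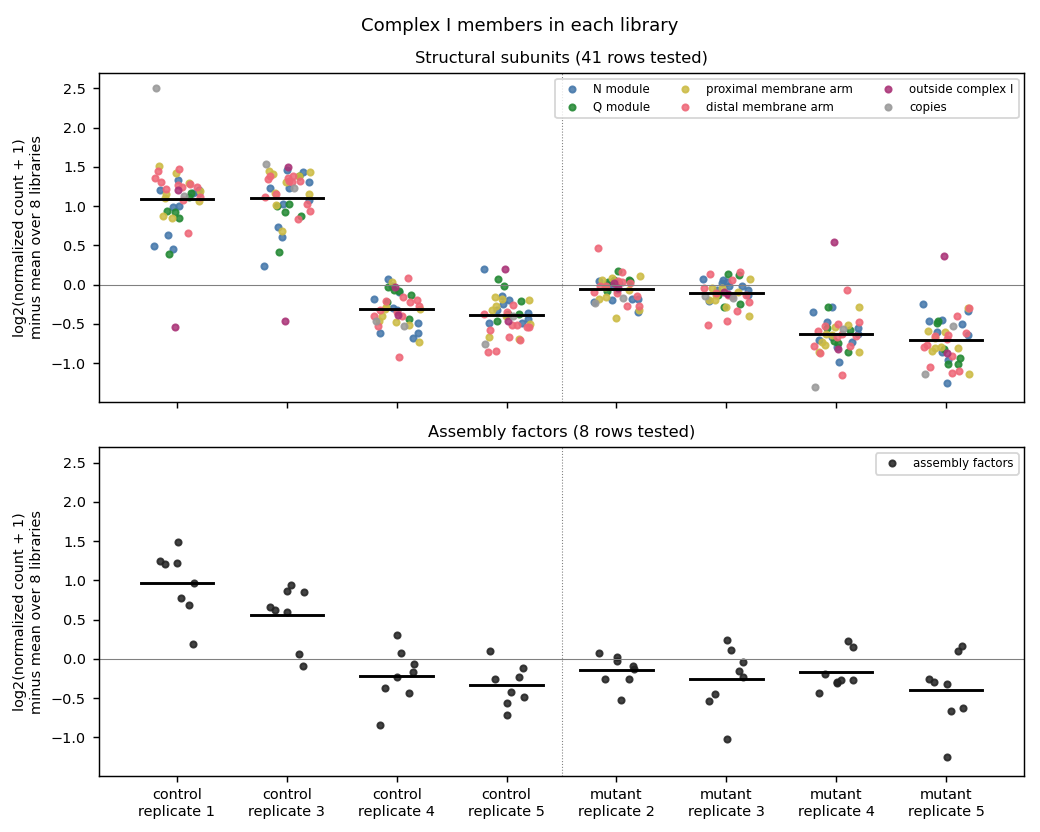
Each point is the log2(normalized count + 1) of a member in a library (horizontal axis) minus that member's mean over the 8 libraries (vertical axis), for the 41 structural rows (top) and 8 assembly factors (bottom), with black bars for the mean in each library. Controls 1 and 3 stand above the other 6 libraries, and mutants 4 and 5 have the lowest means for structural rows, while for assembly factors mutant 5 has the lowest mean and mutant 4 lies among the other libraries.

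Controls 1 and 3 were the highest libraries in most structural rows, so leaving them out was bound to shrink the difference. The matching fit without mutants 4 and 5 was not run. Without controls 1 and 3, a choice made after seeing the data, 0 members were called lower, where 1.51% of all genes were. The log2 fold change was then below 0 for 24 of the 41 structural rows and 3 of the 8 assembly factors, against 52.4% of all genes, with medians of -0.03, 0.04 and -0.03. Its median was -0.24 for the 7 core subunits, with 6 below 0, and -0.02 for the 30 supernumerary subunits, with 16 below 0. By place in the enzyme it was -0.12 in the N module and -0.19 in the Q module. In the proximal and distal membrane arm it was -0.03 and 0.02. Leaving out a single library moved the count of structural rows called lower from 8 to 1 without control 1, control 3, mutant 4 or mutant 5, to 28 without control 4 and to 31 without control 5. The share of all genes called lower moved the same way, from 3.17% to 2.06%, 1.77%, 1.84% and 1.65% in the fits with 1 call and to 4.93% and 6.35% without control 4 and control 5. Ndufs8 was the one row left in each of the fits with 1 call. It was the only member called in all 8 of these fits, which share most of their libraries. In the fits with 1 call, a count of 1 in 41 structural rows is close to the share of all genes.

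The redox centres of the matrix arm lie in core subunits. All 7 core subunits had log2 fold changes below 0, with a median of -0.63, and 3 of them (Ndufv2, Ndufs3 and Ndufs8) were called lower. After the length correction described below, the core median was -0.46, with all 7 below 0 and 1 called lower. That of the supernumerary subunits was then -0.35. Ndufs8 (GSMG0019914, chromosome 19, 3908864 to 3912775 in mm10), which binds iron-sulfur clusters of the Q module, had 6146, 6110, 3075 and 3175 normalized counts in controls 1, 3, 4 and 5 and 3375, 2650, 1959 and 1824 in mutants 2, 3, 4 and 5. Mutant 2 overlapped the lower controls, and the other 3 mutants lay under all controls. The control mean of 4626 ± 1734 (SD, n = 4) stood against a mutant mean of 2452 ± 714 (SD, n = 4), or -0.88 on the log2 scale (standard error 0.30; limma, unadjusted p = 0.014, adjusted p = 0.58). Dropping any 1 library left this value between -1.05 and -0.72, and without controls 1 and 3 it was -0.39 (limma, unadjusted p = 0.18).

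Ndufs3 (GSMG0023160, chromosome 2, 90894627 to 90904722), a scaffold subunit of the Q module, had 4787, 3912, 1953 and 1845 normalized counts in controls 1, 3, 4 and 5. In mutants 2, 3, 4 and 5 it had 2212, 1808, 1432 and 1121. Controls 4 and 5 fell under mutant 2, and only mutants 3, 4 and 5 were below all controls. Ndufs3 differed by a log2 fold change of -0.85 (standard error 0.34; limma, unadjusted p = 0.031). Ndufv2 (GSMG0017784, chromosome 17, 66078795 to 66101559), an iron-sulfur subunit next to the NADH site, had 10298, 12072, 4828 and 4493 normalized counts in controls and 5220, 5082, 2600 and 2654 in mutants, in the same order of libraries. Mutants 2 and 3 lay above controls 4 and 5, and mutants 4 and 5 were lowest by a wide gap. Its log2 fold change was -0.97 (standard error 0.38; limma, unadjusted p = 0.026), the lowest of the core subunits.

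The core subunits other than these 3 were not called by limma and had smaller differences. Ndufv1, which binds the flavin that NADH reduces, had 18710, 20770, 13493 and 12388 normalized counts in controls and 11957, 13911, 11256 and 10032 in mutants (log2 fold change -0.45, standard error 0.22; limma, unadjusted p = 0.069). Ndufs1, the largest iron-sulfur subunit of the N module, had 14345, 15348, 9709 and 7397 in controls and 9325, 8819, 6666 and 6091 in mutants (log2 fold change -0.56, standard error 0.27; limma, unadjusted p = 0.059). Genotypes overlapped through mutant 3 for Ndufv1 and through control 5 for Ndufs1. Ndufs7, which lines the ubiquinone site, had 5339, 5556, 2371 and 2006 normalized counts in controls and 2621, 2553, 1886 and 1970 in mutants (log2 fold change -0.63, standard error 0.34; limma, unadjusted p = 0.091). On 6 libraries DESeq2 called Ndufs7 lower (log2 fold change -0.83, DESeq2 unadjusted p = 0.043), and edgeR did not (-0.82, edgeR unadjusted p = 0.063).

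The 30 supernumerary subunits had a median log2 fold change of -0.78, all 30 were below 0, and 5 were called lower. In the N module, 10 of 10 genes were below 0 with a median of -0.69 and 1 call (Ndufv2). Ndufa12, an N module subunit near the contact with the Q module, had the lowest value of the module at -1.04 (standard error 0.47) and missed the threshold (limma, unadjusted p = 0.051). Ndufv3 had the smallest difference of all 37 subunit genes at -0.37 (standard error 0.20; limma, unadjusted p = 0.09). The 6 genes of the Q module had a median of -0.78 and 2 calls (Ndufs3 and Ndufs8).

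In the proximal membrane arm, 9 of 9 genes were below 0 with a median of -0.80, and Ndufa8, Ndufa10 and Ndufa13 were called lower. Ndufa8 (GSMG0022698, chromosome 2, 36036324 to 36049344), which faces the intermembrane space and whose promoter is printed above, had 20304, 18422, 7504 and 7605 normalized counts in controls and 8186, 8340, 5915 and 5713 in mutants, listed as before. Controls 1 and 3 were far above the other libraries, and controls 4 and 5 lay below both mutants 2 and 3. The log2 fold change was -0.80 (standard error 0.35; limma, unadjusted p = 0.042). Ndufa13 (GSMG0038536, chromosome 8, 69894163 to 69902558), also known as GRIM-19, had 6022, 6273, 2250 and 2503 normalized counts in controls and 2752, 2437, 1642 and 1601 in mutants (log2 fold change -0.90, standard error 0.37; limma, unadjusted p = 0.032). Ndufa10 (GSMG0001901, chromosome 1, 92439018 to 92473815), which has the fold of a nucleoside kinase, had 14601, 13064, 8297 and 7180 in controls and 8611, 7887, 5201 and 4688 in mutants (log2 fold change -0.69, standard error 0.29; limma, unadjusted p = 0.036). Both overlapped through mutants 2 and 3. Without controls 1 and 3 the log2 fold changes of Ndufa8, Ndufa13 and Ndufa10 were -0.12, -0.21 and -0.27, and none was called.

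In the distal membrane arm, 12 of 12 genes were below 0 with a median of -0.80, and Ndufb3 and Ndufb5, both small membrane-anchored supernumerary subunits, were called lower. Ndufb5 (GSMG0024199, chromosome 3, 32737054 to 32751564) had 6634, 8187, 2821 and 2626 normalized counts in controls and 3499, 3267, 1412 and 1435 in mutants. Mutants 2 and 3 lay above controls 4 and 5, and mutants 4 and 5 were below all other libraries. For Ndufb5 the log2 fold change was -1.03 (standard error 0.44; limma, unadjusted p = 0.039). Ndufb3 (GSMG0000290, chromosome 1, 58586397 to 58595962) had 2026, 2154, 663 and 660 in controls and 783, 612, 528 and 522 in mutants (log2 fold change -0.96, standard error 0.41; limma, unadjusted p = 0.041). Here only mutant 2 lay above controls 4 and 5. Leaving out control 1, control 3, mutant 4 or mutant 5 ended the call of each called subunit but Ndufs8, and leaving out mutant 3 ended that of Ndufb3 as well.

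Ndufa4, now known as a subunit of complex IV, had 12248, 14882, 4048 and 3850 normalized counts in controls and 5124, 4859, 2984 and 2884 in mutants (log2 fold change -0.93, standard error 0.44; limma, unadjusted p = 0.06). Its hypoxia-induced paralogue Ndufa4l2 was the one structural row above 0, with 345, 363, 494 and 578 in controls and 510, 469, 735 and 645 in mutants (log2 fold change 0.42, standard error 0.28; limma, unadjusted p = 0.16). For Ndufa4l2, controls 1 and 3 were the lowest libraries and mutants 4 and 5 the highest. It overlaps Shmt2, whose row had a mean of 2773 normalized counts against 517 for Ndufa4l2, and the sources do not say that counting used strand, so reads of the pair may not be separable. Among the copies, Ndufb4c had the lowest log2 fold change of all members, -1.41 (standard error 0.69; limma, unadjusted p = 0.066), with 1302, 664, 165 and 135 normalized counts in controls and 195, 207, 92.3 and 103 in mutants. Ndufs5-ps had 1663 ± 993 normalized counts (SD, n = 4) in controls, more than the 1021 ± 583 of Ndufs5 itself, and reads may be shared between copies and parent genes. Ndufb11b was at 0 in all libraries, and Ndufa11b was at 0 in controls and at most 8.2 in mutants. Of the 51 members, 20 overlapped another row of the table by coordinates, 11 of them a row with over 10% of their own mean level, among them Ndufaf2, Ndufaf3, Ndufb1, Ndufb2 and Ndufb11. None of the 8 called genes was among these 11.

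Assembly factors were far less abundant than subunits. Per kilobase of transcript, control levels had a median of 653 normalized counts over the 8 assembly factors (202 to 1159) and of 4418 over the 38 structural rows with a known length (372 to 19037). In mutants these medians were 389 and 2274. The highest structural levels per kilobase in controls were those of Ndufa4 (19037), Ndufa8 (15631) and Ndufb9 (14351). Length here is the median over a gene's protein-coding transcripts. The authors counted reads on constitutive regions only, so counts and lengths cover different sequence and levels per kilobase are approximate.

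Ndufaf7, a methyltransferase, had 3905, 2545, 1799 and 2077 normalized counts in controls and 2037, 2178, 2847 and 2602 in mutants (log2 fold change -0.04, standard error 0.25; limma, unadjusted p = 0.87). Ndufaf4, a Q module assembly factor, had 862, 707, 675 and 695 in controls and 712, 733, 842 and 850 in mutants (log2 fold change 0.10, standard error 0.21; limma, unadjusted p = 0.65). In both, mutants 4 and 5 were above mutants 2 and 3, the reverse of the order seen in most structural rows. Ndufaf3, the partner of Ndufaf4 on the Q module, had 1926, 1282, 648 and 701 normalized counts in controls and 699, 612, 730 and 684 in mutants (log2 fold change -0.60, standard error 0.34; limma, unadjusted p = 0.1). Its 4 mutants and controls 4 and 5 fell between 612 and 730.

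Ndufaf1, part of the membrane arm assembly complex, had 1453, 1340, 711 and 533 normalized counts in controls and 681, 631, 617 and 482 in mutants (log2 fold change -0.63, standard error 0.33; limma, unadjusted p = 0.087). Ndufaf2, a paralogue of Ndufa12 that holds its place until late assembly, had 474, 533, 291 and 207 in controls and 192, 299, 230 and 174 in mutants (log2 fold change -0.68, standard error 0.38; limma, unadjusted p = 0.099). Ndufaf5, which hydroxylates Ndufs7, had 1374, 1070, 502 and 396 in controls and 594, 692, 476 and 247 in mutants (log2 fold change -0.65, standard error 0.45; limma, unadjusted p = 0.18). Controls 1 and 3 stood above all mutants in these 3, as did control 4 for Ndufaf1. Ndufaf8, the partner of Ndufaf5, had 530, 353, 124 and 239 in controls and 236, 154, 165 and 186 in mutants (log2 fold change -0.58, standard error 0.45; limma, unadjusted p = 0.23). Ndufaf6, needed for making a core subunit of the membrane arm, had the lowest value of the class, -0.83 (standard error 0.46; limma, unadjusted p = 0.096), with 793, 426, 348 and 172 in controls and 278, 139, 230 and 225 in mutants. Control 5 lay among its mutants, and for Ndufaf8 control 4 was the lowest of all libraries. No assembly factor was called by limma with all 8 libraries, while edgeR and DESeq2 on 6 libraries called Ndufaf3 (log2 fold changes -0.89 and -0.90, unadjusted p = 0.04 and 0.031 from these tools). In limma, leaving out control 4 gave 2 calls (Ndufaf3 and Ndufaf8) and leaving out control 5 gave 4 (Ndufaf1, Ndufaf2, Ndufaf3 and Ndufaf6), all lower. The share of all genes called lower rose as well in these fits, from 3.17% to 4.93% and 6.35%.

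The contrast of structural rows with assembly factors was small beside its spread. The difference of the medians of log2 fold change was -0.16. The mean log2 value of the structural rows exceeded that of the assembly factors by 1.93, 2.36, 1.72 and 1.77 in controls 1, 3, 4 and 5 and by 1.91, 1.97, 1.37 and 1.51 in mutants 2, 3, 4 and 5. The 2 genotypes overlapped, with an SD of 0.29 among controls and 0.30 among mutants beside a difference of -0.26. Mutants 4 and 5, which also had the lowest interneuron marker sums, had the smallest gaps. Among mutants the mean log2 value of the assembly factors was 9.02, 8.91, 8.99 and 8.77, an SD of 0.11 against 0.34 for the structural rows. The part of interneuron content in this was not tested.

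Transcript length moved with the genotype difference over the whole table, and the members are short. Median length was 810 bases for the 38 structural rows with a length, 1308 bases for the 8 assembly factors and 2718 bases for all 15183 tested genes with a length. Among the other genes under 800 bases the median log2 fold change was -0.56 (562 genes), and 79.9% of them were below 0. The median was -0.35 from 1000 to 1500 bases (1656 genes) and 0.29 at 5000 bases or more (2133 genes). In the shortest class, the 21 members had a median of -0.82, and from 1000 to 1500 bases the 9 members had a median of -0.77. In that shortest class, the other genes lay 0.98 and 0.80 above their own mean over libraries in controls 1 and 3 (medians, log2 scale) and between -0.36 and -0.13 in the other 6 libraries. The assembly factors Ndufaf4 (3632 bases) and Ndufaf7 (2228 bases), which had the smallest differences of their class, are the longest of it. The rank correlation of length with log2 fold change was 0.28 over the 38 structural rows and 0.37 over the 15137 other genes. Genes are not independent replicates, and this is a description.

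**Figure D3:**
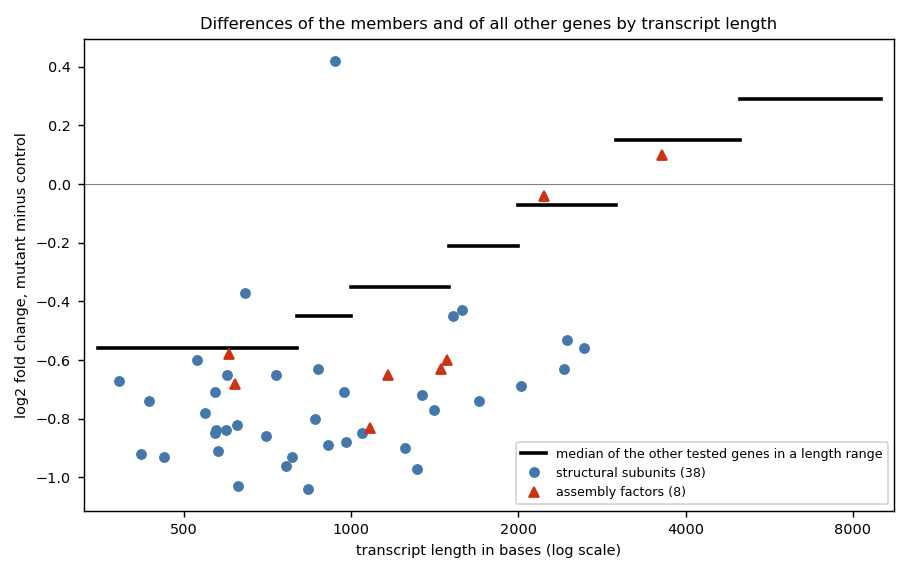
The log2 fold change (vertical axis, mutant minus control) of the 38 structural rows and 8 assembly factors with a known length is plotted against transcript length in bases on a log scale, and black bars give the median of the other tested genes in 7 length ranges. The bars climb from -0.56 to 0.29 with length, and 36 of the structural rows and 7 of the assembly factors lie below the bar of their own range.

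When the trend of all genes on length was taken out of each library, another choice made after seeing the data, the median log2 fold change was -0.34 for structural rows, -0.22 for assembly factors and 0.00 for all genes. It was below 0 for 36 of 38 structural rows and 7 of 8 assembly factors, against 50.0% of all genes. Only 1 member, Ndufv2, was still called lower at -0.65 (standard error 0.28; limma, unadjusted p = 0.044), where 3.51% of all genes were called lower, and 0 members were called higher, where 3.76% were. Ndufs8 was at -0.47 (standard error 0.18; limma, unadjusted p = 0.029), under the fold threshold. After this step the mean log2 value of the structural rows was 11.38, 11.61, 11.09 and 10.98 in controls 1, 3, 4 and 5 and 11.21, 11.17, 10.75 and 10.71 in mutants 2, 3, 4 and 5. Mutants 2 and 3 still lay above controls 4 and 5, and mutants 4 and 5 below all other libraries. The difference between genotypes was -0.30, with an SD of 0.28 among controls and 0.27 among mutants.

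**Figure D4:**
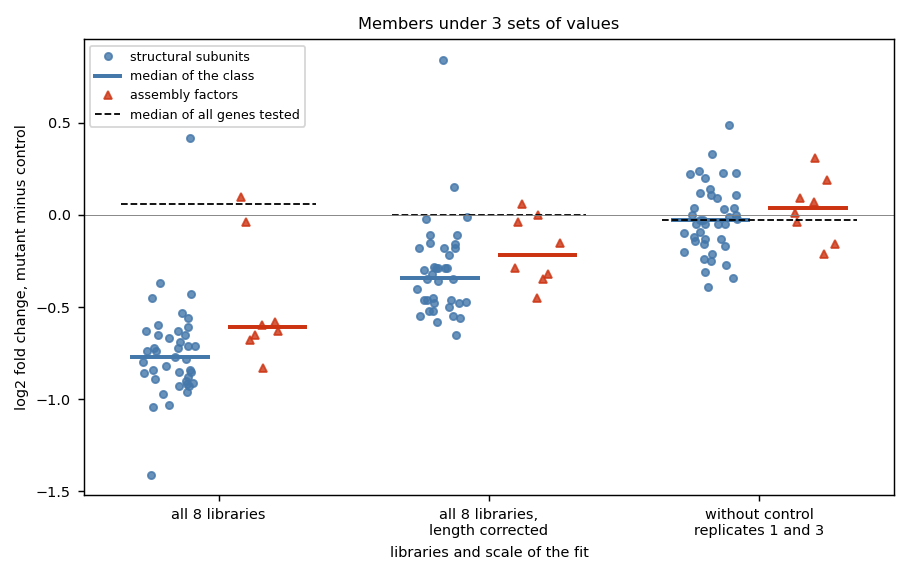
The log2 fold change of each member (vertical axis) is shown for all 8 libraries, for the same libraries after the length correction, and without controls 1 and 3, with class medians as solid bars and the median of all genes tested as dashed lines. The structural median goes from -0.77 to -0.34 and -0.03, and that of the assembly factors from -0.61 to -0.22 and 0.04.

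Other genes of the pathway were read from the same fit. Of 12 further complex I assembly factors in the table, 10 were below 0 with a median log2 fold change of -0.44 and 1 was called lower. That 1 was Tmem186, a partner of Ndufaf1, with 1618, 1467, 1572 and 1192 normalized counts in controls and 1006, 710, 1042 and 922 in mutants. Its mutants all lay below its controls, as in 2.17% of all genes, and controls 1 and 3 did not stand apart from control 4 (log2 fold change -0.67, standard error 0.21; limma, unadjusted p = 0.0089, adjusted p = 0.58). Of these 12, 2 were called lower without controls 1 and 3 (1.51% of all genes were), with a median of -0.07. After the length correction 1 was (3.51% of all genes were), with a median of -0.16. Tmem186 was called in both, at -0.59 (limma, unadjusted p = 0.039) and -0.75 (limma, unadjusted p = 0.0028). Nuclear subunits of the other complexes had medians close to that of the complex I subunits, at -0.62 for 4 genes of complex II, -0.75 for 9 of complex III, -0.84 for 10 of complex IV and -0.78 for 15 of complex V, with 0, 3, 1 and 4 called lower and 0 called higher. Of all genes, 3.17% were called lower and 3.98% higher. Mutants also all lay below controls in 2 genes of complex III and 1 of complex IV. Controls 1 and 3 stood apart here too, with mean log2 values of 13.37 and 13.26 for complex IV against 11.57 and 11.42 in controls 4 and 5. Without controls 1 and 3 the medians of complexes II to V were -0.13, 0.00, 0.12 and -0.09, and after the length correction -0.37, -0.23, -0.31 and -0.33, with 0 calls in both. For the 8 regulators of mitochondrial gene expression listed (Nrf1, Gabpa, Gabpb1, Yy1, Ppargc1a, Ppargc1b, Esrra and Tfam) the median was -0.09 and none was called. The 3 factors or subunits whose sequences were searched above, Nrf1, Gabpa and Yy1, had log2 fold changes of 0.32 (standard error 0.27), 0.71 (standard error 0.36) and -0.06 (standard error 0.22).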

How the data were processed

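RNA on HA-tagged ribosomes of cortical synaptosomes was sequenced from 4 control and 4 Erbb4 conditional mutant libraries. The authors aligned reads to mm10 with STAR 2.4.0, counted those on constitutive regions of Mouse Fast DB genes and normalized them with DESeq2, and the deposited values are this normalized signal per gene and library. For 6 of the 8 libraries the values were taken back to whole reads (100% of them whole within 0.02), and control 4 and mutant 5, whose steps were close to 1, were left out of this step. The 6 had 51010687 to 80226984 reads per library, so the spread between libraries limits precision more than counting. Sequencing was done in 2 batches according to the study, and the labels do not assign libraries to them, so no within-batch value could be given and the part of batch was not tested.

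The fit covered genes averaging 10 or more normalized counts in a genotype and used limma 3.58.1 in R 4.3.3 (lmFit, eBayes with trend, no covariate) on log2(normalized count + 1), which understates changes of low genes. P-values were adjusted by Benjamini-Hochberg over all genes tested. EdgeR 4.0.16 (quasi-likelihood) and DESeq2 1.42.0 were run on the reads of the 6 libraries. The fit was tested on simulated data, which held no trend with length, no batch and no libraries set apart. That test cannot show how the fit behaves under these features. Transcript lengths were medians of GENCODE basic protein-coding transcripts, matched by symbol for 46 of the 49 members tested, and the length correction subtracted a lowess curve (span 0.3) in each library.

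Named members were those called, the lowest and highest of each class, the core subunits (1 is not reported here), all assembly factors, Ndufa4 and Ndufa4l2. Ndufa12, Ndufv3, Ndufs5, Ndufs5-ps, Tmem186 and the regulators were named after their values were seen. Members and lists were chosen with earlier results of these data known. Lists are described by counts and medians without a test of the list.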

Additional observations from a re-analysis of the deposited data

How the results depend on the processing

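The count of structural rows called lower, 8 with all 8 libraries, was 0 at an adjusted p under 0.05 (limma), 1 without the trend of eBayes, 19 with the replicate number as a block, 0 without controls 1 and 3, and 1 after the length correction. The fit with the block takes its genotype difference from replicates 3, 4 and 5 only. Among all 31171 genes tested, 988 were called lower in the main fit, 719 without the trend and 1719 with the block. Without controls 1 and 3 these were 472 of 31285, and after the length correction 533 of 15183. On the 6 libraries with recovered reads the structural count was 21 with edgeR and 30 with DESeq2, against 11 with limma. Of all 31121 genes tested there, edgeR, DESeq2 and limma called 911, 1239 and 826 lower and 818, 1140 and 943 higher. Leaving out 1 library gave 1 to 31 structural calls and 0 to 4 assembly factor calls, with 515 to 1977 genes called lower in all. Assembly factors called went from 0 to 1 with edgeR and with DESeq2. The structural median moved to -0.03 and the assembly median to 0.04 without controls 1 and 3. Elsewhere both medians stayed within the spread between libraries (an SD of the class mean), from -1.04 to -0.34 for structural rows and -0.84 to -0.22 for assembly factors, and their difference ran from -0.29 to -0.04 over all settings. Both pseudocounts, both filters, quantile normalization and library weights gave 8 to 10 structural calls, with 851 to 1633 genes called lower in all.

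The replicate block was not used for pairing: deviations of same-numbered libraries correlated at 0.1, 0.0981 and 0.0823 for replicates 3, 4 and 5, and with the block 7 of the 8 calls were kept and the structural median was -0.63. Control 1 and mutant 2 share their number with no other library, so they add nothing to the genotype difference of that fit. Over all genes, 988 were lower and 1241 higher, and across settings these counts ran from 472 to 1977 and from 571 to 1997, with 0 to 61 genes at an adjusted p under 0.05 beside 14. For single named genes no called value changed sign. Under settings chosen after seeing the data (the length correction, leaving out controls 1 and 3, and the fits on 6 libraries), 91 of their values kept their side of the threshold, 20 lost a call and 8 gained one, and under the other settings these numbers were 344, 48 and 16. Fits of edgeR and DESeq2 on all 8 libraries were not run. In control 4 and mutant 5 all values were also whole multiples of a step, 1.00088 and 0.992302, but with steps so close to 1 they were not used as reads, although reads may be recoverable there too.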
